A study of Homo sapiens with 9 samples.

Results

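The proteasome is the protease complex that degrades ubiquitin-tagged proteins, and the genes described here encode its subunits, regulators and assembly chaperones. They were chosen by symbol: every gene that at least 1 probe set names alone and whose symbol begins with PSMA, PSMB, PSMC, PSMD, PSME, PSMF or PSMG followed by a number. By this rule 50 genes were found among the 19775 genes that a probe set of the array names alone, and each was represented by its probe set of the highest mean over the 9 arrays. In 42 of the 50 the symbol ends with the number, and these are the subunits, regulators and chaperones themselves. The other 8 symbols go on after the number (PSMA3-AS1, PSMB8-AS1, PSMC3IP, PSMD14-DT, PSMD6-AS2, PSMD7-DT, PSME3IP1 and PSMG3-AS1) and name antisense or divergent transcripts and partner genes. PSME2 and PSMA6 are named only by probe sets that name a second gene as well (MIR7703 and PRORP), so they are no members. PSMC5, PSMD7, PSMD13 and PSMB11 were not analysed here.

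The cells were BL2, 1 established human Burkitt lymphoma line, which stands for transformed germinal centre B cells. The 9 arrays formed 3 groups of 3: unstimulated control cells, cells stimulated for 6 hrs with recombinant human CD40L at 200 ng/ml, and cells stimulated for 6 hrs with LPS, given in the methods as 1 μM. All groups shared the line and its culture medium, and no array carried both stimuli. The replicate number marks 1 of 3 experimental batches, each with 1 array of every group. CD40L is the T cell signal that activates B cells through CD40, and LPS is the bacterial ligand of TLR4.

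In its standard form the barrel-shaped 20S core carries the catalytic subunits PSMB5, PSMB6 and PSMB7. In cells of the immune system or after interferon they are replaced by PSMB8, PSMB9 and PSMB10, which gives the immunoproteasome. PSME1 and PSME2 form the PA28 cap that opens the core for peptide release. The peptides are carried into the endoplasmic reticulum by the transporter TAP1 and TAP2 and loaded on MHC class I molecules. NF-κB and interferon regulatory factors are known to act on the immunoproteasome genes. The comparison asks whether 6 hrs of CD40L or LPS moved the immunoproteasome and PA28 genes apart from the standard subunits.

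The arrays gave even values. Array medians lay between 6.42 and 6.47 on the generalised log2 scale, and arrays of 1 group correlated with each other at 0.994 to 0.997 over all probe sets. The label was checked against B cell markers, of which 7 of the 8 listed were measured, at mean levels between 9.48 (CD38) and 13.0 (MS4A1). Of these, 5 fell after CD40L and 4 after LPS, against 2.92% and 1.48% of all genes. Of genes with a mean level of at least 8, 5.93% and 3.14% fell. PAX5 went the other way (log2 fold change 0.39 after CD40L and 0.31 after LPS, not called). MS4A1 moved little (-0.036 and -0.066). Markers of other cell types read lower: 5 T and NK cell genes at 6.17 to 6.51, 3 monocyte genes at 6.16 to 6.67. The 4 fibroblast genes read 6.23 to 7.94, the highest of them above the median level of all genes (6.78). By these probe sets, each the brightest of its gene, none was called in either comparison. The study kept the probe set of highest fold change, and lists COL1A1, a fibroblast gene, among its top genes after CD40L. Replicates are arrays of separate batches of 1 line. Batch is a term of the fit, so p-values rest on how evenly a change repeats across the batches. The spread they use is estimated in part over all probe sets. In such bulk RNA, fewer cells with a transcript and less of it in each cell cannot be told apart.

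No immunoproteasome or PA28 gene was called higher or lower after either stimulus. The 4 that the rule finds (PSMB8, PSMB9, PSMB10 and PSME1) had log2 fold changes from -0.12 to 0.048 after CD40L and from -0.20 to -0.061 after LPS, and none passed an adjusted p of 0.05. Of all 50 members, 2 rose after CD40L, PSME3 and PSMD11, and none fell. This share was no larger than that of all genes, of which 5.03% were called higher and 2.92% lower. Since most members are bright, the same was counted over the 5990 genes with a mean level of at least 8, of which 12.8% were called higher and 5.93% lower. The study's supplement lists the proteasome among pathways enriched in its genes upregulated by CD40L. It used its own gene list and measure, and was not repeated here. After LPS 0 of the 50 members were called in either direction, against 1.62% of all genes called higher and 1.48% lower, and 4.39% and 3.14% of the bright genes. Between CD40L and LPS 0 of 50 were called, against 0.491% of all genes higher with CD40L and 0.152% lower.

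At an unadjusted p under 0.05, 9 members were higher and 2 lower after CD40L, where all genes gave 12.6% and 7.32%. Of the 5990 bright genes, 1724 were higher and 678 lower by this measure. With quantile normalisation 5 members were higher and 9 lower by this measure. The share of all genes was not counted under that normalisation, so the 5 and 9 are no result about the members. After LPS 4 members were higher and 4 lower by this measure, where all genes gave 8.41% and 6.57%. Of the 5990 bright genes, 1195 were higher and 664 lower. In the direct comparison 0 members had an unadjusted p under 0.05 in either direction, where all genes gave 3.87% and 2.4%. Of the 5990 bright genes, 418 were higher with CD40L and 195 lower. The LPS and CD40L comparisons share the control arrays, so their values stand side by side here and are no independent replicates of each other.

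PSMB8 encodes the immunoproteasome subunit β5i, which has chymotrypsin-like activity. Its level (probe set 209040_s_at) was 10.91, 10.82 and 10.79 on the control arrays, 10.77, 10.76 and 10.72 after CD40L, and 10.77, 10.55 and 10.77 after LPS. All stimulated arrays lay below all control arrays, by little, and the second LPS array was the lowest. The log2 fold change was -0.090 ± 0.063 (SE, n = 3 arrays a group) after CD40L, with a limma adjusted p of 0.578. After LPS it was -0.14 ± 0.063, with a limma adjusted p of 0.387. As a fold, the 95% interval ran from 0.857 to 1.03 for CD40L and from 0.827 to 0.994 for LPS, not adjusted for the number of probe sets.

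PSMB9 encodes β1i. Its level (204279_at) was 10.05, 10.02 and 10.07 in control cells, 9.93, 9.86 and 9.99 after CD40L, and 9.87, 9.63 and 10.04 after LPS. The CD40L arrays lay below the controls without overlap, while the third LPS array lay among the controls. The log2 fold change was -0.12 ± 0.066 after CD40L (limma adjusted p = 0.435, fold interval 0.835 to 1.01) and -0.20 ± 0.066 after LPS (limma adjusted p = 0.173, fold interval 0.790 to 0.960). With quantile normalisation of the deposited values the LPS change was -0.25 and passed the threshold, with a limma adjusted p of 0.0448. Over 21 alternative settings its adjusted p for LPS ran from 0.0448 to 0.720, and the quantile setting was the only 1 of the 21 below the threshold.

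PSMB10 encodes β2i, with trypsin-like activity. Its level (202659_at) was 8.82, 8.59 and 8.82 in control cells, 8.89, 8.75 and 8.73 after CD40L, and 8.78, 8.50 and 8.77 after LPS. The groups overlapped, and in each of them the spread between batches was larger than the difference between the means. The log2 fold change was 0.048 ± 0.063 after CD40L (limma adjusted p = 0.825, fold interval 0.943 to 1.13) and -0.061 ± 0.063 after LPS (0.834, fold interval 0.874 to 1.05). Its sign after CD40L turned with quantile normalisation (-0.017), without CD40L replicate 2 (-0.016) and without the second batch (-0.0089).

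PSME1 encodes the α subunit of PA28. Its level (200814_at) was 10.97, 11.05 and 10.96 in control cells, 10.89, 10.90 and 10.95 after CD40L, and 10.89, 10.75 and 11.00 after LPS. The CD40L arrays lay just under the controls, and so did the first and second LPS arrays, while the third LPS array lay within the control range. The log2 fold change was -0.081 ± 0.065 after CD40L (limma adjusted p = 0.656) and -0.12 ± 0.065 after LPS (0.558). Without single arrays or batches it ran from -0.14 (without control replicate 3) to -0.015 (without control replicate 2) after CD40L, and from -0.19 (without batch 3) to -0.021 (without batch 2) after LPS. The probe set that names PSME2 together with MIR7703 had a log2 fold change of 0.055 after CD40L (0.784) and -0.016 after LPS (0.971).

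**Figure D1:**
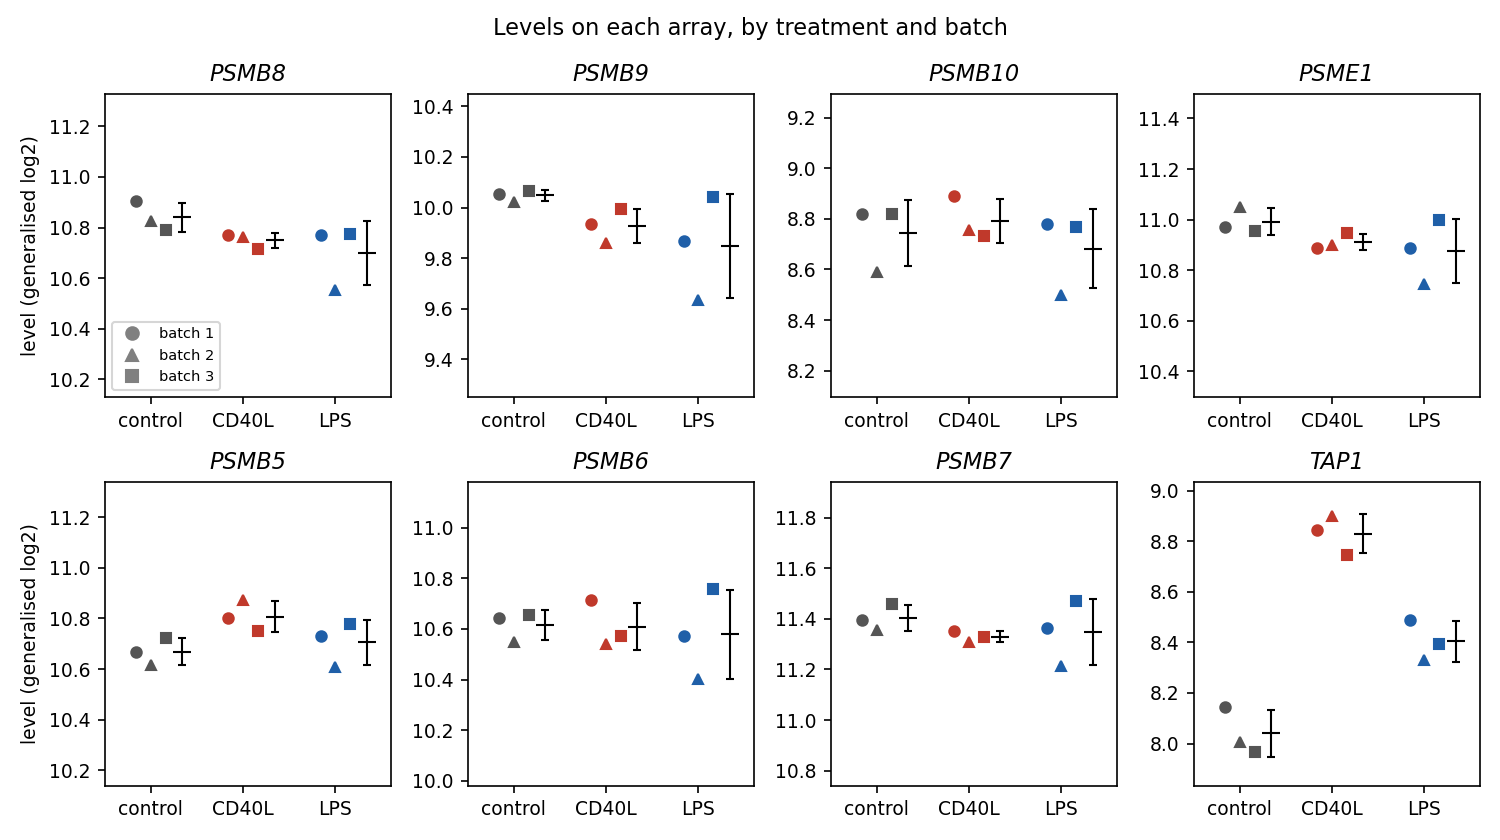
Generalised log2 level of each gene on each of the 9 arrays, by treatment, with a marker for each batch and the mean ± SD of 3 arrays beside each group. Every panel spans the same range of 1.2 log2 units. The 7 proteasome genes lie close to their controls in both stimulated groups. The means of TAP1 are 8.04 (control), 8.83 (CD40L) and 8.40 (LPS).

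The standard counterparts stayed near the controls too. PSMB5 was at 10.67, 10.62 and 10.72 in control cells and 10.80, 10.87 and 10.75 after CD40L, which is 0.14 ± 0.062 on the log2 scale (SE, limma adjusted p = 0.288). Its CD40L arrays all lay above the control arrays. For PSMB6 the log2 fold change was -0.0075 after CD40L and -0.038 after LPS, and for PSMB7 it was -0.073 and -0.054, none of them called.

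Within each array and batch, the difference between an immunoproteasome subunit and its counterpart was then set against the control of that batch. For PSMB8 less PSMB5 it changed by -0.27, -0.31 and -0.10 in the 3 batches after CD40L, a mean of -0.23 ± 0.11 (SD, n = 3 batches), and by -0.18 ± 0.096 after LPS. Every batch gave a negative value in both comparisons, so PSMB8 stood lower against PSMB5 than in control cells. For PSMB9 less PSMB6 the mean was -0.11 ± 0.11 after CD40L, with 1 of 3 batches positive, and -0.16 ± 0.071 after LPS. For PSMB10 less PSMB7 it was 0.12 ± 0.086 after CD40L, with 3 of 3 batches positive, and -0.0067 ± 0.057 after LPS. Without single arrays or batches, PSMB9 less PSMB6 ran from -0.17 to -0.061 after CD40L, lowest without batch 3 and highest without CD40L replicate 1. PSMB10 less PSMB7 ran from 0.077 (without batch 2) to 0.16 (without batch 3) after CD40L. After LPS it took either sign, from -0.043 (without control replicate 2) to 0.028 (without control replicate 3). These differences carry no test, and the 3 pairs did not move in 1 direction after CD40L.

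As a group, the 4 immunoproteasome and PA28 genes had a median log2 fold change of -0.086 after CD40L and -0.13 after LPS. The other 38 subunits, regulators and chaperones had medians of 0.062 and 0.0073. All 19775 genes had medians of 0.0051 and 0.0018, and the bright genes 0.051 and 0.028. In each batch the median of the 4 lay below that of the 38 (CD40L: -0.10, -0.11 and -0.075 against 0.087, 0.076 and 0.017). With quantile normalisation the medians after CD40L were -0.15 and 0.024, and the median of the 38 after LPS turned from 0.0073 to -0.018.

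The array of the second LPS replicate was low for nearly all of these genes. In 39 of the 42 subunits, regulators and chaperones it was the lowest of the 3 LPS arrays, whereas it was the lowest in 48.2% of the bright genes. Without it the median after LPS was -0.054 for the 4 immunoproteasome and PA28 genes and 0.070 for the 38 others, and PSMB9 had a log2 fold change of -0.12 (limma adjusted p = 0.720). The part of this array in the LPS values of the members was not tested further.

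PSMB9 and TAP1 lie head to head on chromosome 6, with 488 bases between their start sites, and are transcribed away from each other. TAP1 has 2 start sites in the table, and this distance is to the one nearer PSMB9, the other being 1431 bases away. Their regulatory stretch is shown because TAP1 rose after both stimuli and PSMB9 passed the test after neither. The 250 bases before each start were taken from RefSeq (GRCh38.p14), which held promoter entries for 43 of the 50 members. The 2 windows overlap by 13 bases and together cover the interval. Each is written 5′ to 3′ on its own gene's strand. Capitals mark matches to GGGANTTTC or GGGANTTCC (κB forms), GAAANNGAA (interferon-stimulated element), TTCNNNGAA (gamma-activated site) and TGACNNNGC (antioxidant element), searched on both strands, with N for any base.
PSMB9, chr6:32853942-32854191, plus strand: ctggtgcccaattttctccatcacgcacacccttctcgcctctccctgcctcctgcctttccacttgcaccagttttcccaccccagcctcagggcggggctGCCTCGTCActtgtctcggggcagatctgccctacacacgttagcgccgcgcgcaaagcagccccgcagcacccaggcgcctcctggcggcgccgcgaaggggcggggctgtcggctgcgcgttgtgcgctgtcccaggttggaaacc
TAP1, chr6:32853705-32853954, minus strand: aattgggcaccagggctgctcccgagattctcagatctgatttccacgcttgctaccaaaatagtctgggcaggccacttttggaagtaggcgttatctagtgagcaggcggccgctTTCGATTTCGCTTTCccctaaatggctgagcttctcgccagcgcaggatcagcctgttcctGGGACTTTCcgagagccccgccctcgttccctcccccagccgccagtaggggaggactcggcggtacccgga
In the TAP1 window the capitals are 1 κB match, from 72 to 64 bases before the start, and a pair of overlapping matches to the interferon-stimulated element on the opposite strand, the nearer of which ends 119 bases before it. These matches lie in the interval between the 2 starts, so they are upstream of PSMB9 too, outside its 250-base window. The PSMB9 window held 1 antioxidant match on the opposite strand, and the window of the other TAP1 start, not shown, held 1 gamma-activated match. Of all 35116 promoter entries, 1.12% held GGGANTTTC, 1.59% GGGANTTCC, 6.88% GAAANNGAA, 6.57% TTCNNNGAA and 10.9% TGACNNNGC. A match is a description of letters and shows no binding.

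TAP1, a subunit of the peptide transporter, was at 8.15, 8.01 and 7.97 in control cells, 8.84, 8.90 and 8.75 after CD40L, and 8.49, 8.33 and 8.39 after LPS. The 3 groups did not overlap. It rose by 0.79 ± 0.0605 (log2, SE) after CD40L, with a limma adjusted p of 6.71e-07, and this call was made in all 21 alternative settings. After LPS it rose by 0.36 (limma adjusted p = 0.00397, and 0.0013 to 0.106 over the 21 settings). That call was lost without LPS replicate 1 (0.0588), LPS replicate 3 (0.0557), or all arrays of batch 1 (0.0657) or batch 3 (0.106). Against PSMB9 on the same arrays, TAP1 moved by 0.82, 1.05 and 0.85 in the 3 batches after CD40L and by 0.53, 0.71 and 0.45 after LPS, a difference given as values with no test.

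The promoter of PSMB10, on chromosome 16, is shown as the immunoproteasome gene with an interferon-stimulated match close to its start, from 21 to 13 bases before it.
PSMB10, chr16:67936851-67937100, minus strand: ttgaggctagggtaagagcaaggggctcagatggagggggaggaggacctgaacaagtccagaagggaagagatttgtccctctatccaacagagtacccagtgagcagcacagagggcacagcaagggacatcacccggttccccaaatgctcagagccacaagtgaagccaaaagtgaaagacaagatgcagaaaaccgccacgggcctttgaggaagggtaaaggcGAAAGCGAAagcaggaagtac
The same 9 letters, GAAAGCGAA, stand from 28 to 20 bases before the start of PSME2, from 33 to 25 bases before that of PSMG4, and from 44 to 36 bases before that of PSMB8-AS1, at the PSMB8 locus. PSMB8 has 2 start sites in the table, of which the upstream one held none of these motifs and the other held 1 gamma-activated match. Among the 43 members with an entry, 7 held GAAANNGAA (2295 of 27305 genes in all), 7 held TTCNNNGAA (2208 of 27305), 12 held TGACNNNGC (3609 of 27305), and 2, PSMA8 and PSMC4, held a κB form.

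PSME3 was the member with the highest log2 fold change after CD40L. It encodes PA28γ, the nuclear relative of the PA28 cap. Its level (209852_x_at) was 10.98, 10.58 and 10.65 in control cells, 11.11, 11.15 and 10.89 after CD40L, and 11.08, 10.95 and 10.84 after LPS. The control array of batch 1 was as high as some stimulated arrays, but within each batch both stimulated arrays lay above their control. It rose after CD40L by 0.32 ± 0.072 (log2, SE), a fold of 1.24 (95% interval 1.12 to 1.38), with a limma adjusted p of 0.0152. The changes in the 3 batches were 0.13, 0.58 and 0.24, the largest being that of batch 2. After LPS the log2 fold change was 0.22 (limma adjusted p = 0.155).

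The call for PSME3 depended on the batch term and on single arrays. It was made in 13 of 21 alternative settings, with adjusted p from 0.0088 to 0.167. Without the replicate block the same change of 0.32 had a limma adjusted p of 0.167, with it as a random effect 0.114, and with only the control and CD40L arrays in the fit 0.0697. The call was lost without control replicate 2 (0.21, adjusted p = 0.0701), CD40L replicate 2 (0.22, 0.155), CD40L replicate 3 (0.35, 0.0512), or all arrays of batch 2 (0.18, 0.164) or batch 3 (0.35, 0.0855). Of its 4 probe sets a second, 200987_x_at, rose by 0.25 (limma adjusted p = 0.0193), while the others had 0.18 (0.135) and 0.13 (0.595). Both that rose carry the suffix by which the array's maker marks probes that can match further transcripts.

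PSMD11 encodes a scaffold subunit of the 19S lid. Its level (208777_s_at) was 10.84, 10.76 and 10.97 in control cells, 11.07, 11.13 and 11.14 after CD40L, and 11.02, 11.01 and 11.10 after LPS. All stimulated arrays lay above all control arrays. It rose after CD40L by 0.26 ± 0.058 (log2, SE), a fold of 1.19 (95% interval 1.10 to 1.30), with a limma adjusted p of 0.0142. After LPS the log2 fold change was 0.19 ± 0.058 (limma adjusted p = 0.137). The second and dimmer probe set, 208776_at, rose by 0.21 after CD40L (limma adjusted p = 0.0386) and had 0.21 after LPS (0.0736).

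The CD40L call of PSMD11 was made in 15 of 21 alternative settings, with adjusted p from 0.0100 to 0.120. It was lost with only the control and CD40L arrays in the fit (0.0613), and without control replicate 2 (0.0644), CD40L replicate 1 (0.0559), CD40L replicate 2 (0.120), or all arrays of batch 1 (0.119) or batch 2 (0.120). The promoters of both genes, on chromosome 17, are shown because these were the members called. That of PSME3 held 1 gamma-activated match, 230 to 222 bases before the start, and that of PSMD11 held none of the motifs searched.
PSME3, chr17:42833147-42833396, plus strand: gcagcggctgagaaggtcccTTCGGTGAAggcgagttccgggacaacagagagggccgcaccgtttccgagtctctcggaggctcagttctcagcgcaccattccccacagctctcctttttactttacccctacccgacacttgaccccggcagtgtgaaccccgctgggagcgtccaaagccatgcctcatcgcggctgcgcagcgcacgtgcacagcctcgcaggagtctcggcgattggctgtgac
PSMD11, chr17:32444260-32444509, plus strand: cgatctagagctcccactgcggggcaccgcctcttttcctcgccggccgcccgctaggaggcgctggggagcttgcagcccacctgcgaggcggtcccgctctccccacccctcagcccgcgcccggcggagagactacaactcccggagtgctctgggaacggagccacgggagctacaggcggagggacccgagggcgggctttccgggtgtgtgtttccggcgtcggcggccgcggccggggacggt

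Other lid subunits came close to the threshold. PSMD6 was at 11.23, 11.18 and 11.16 in control cells, 11.41, 11.40 and 11.39 after CD40L, and 11.42, 11.25 and 11.48 after LPS. PSMD12 was at 10.49, 10.57 and 10.71 in control cells, 10.78, 10.77 and 10.85 after CD40L, and 10.79, 10.68 and 10.86 after LPS. For both genes the CD40L arrays lay above all control arrays. PSMD6 had a log2 fold change of 0.21 ± 0.061 after CD40L (limma adjusted p = 0.0566) and 0.19 after LPS (0.154). PSMD12 had 0.21 ± 0.059 (0.0531) and 0.18 (0.150). Both passed the threshold without control replicate 2, PSMD6 with an adjusted p of 0.0326 and PSMD12 with 0.0450, and over the 21 settings their adjusted p ran from 0.0326 to 0.285 and from 9.65e-05 to 0.403.

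Ordered by role, the 19S subunits lay above 0 more often than the standard 20S subunits, although 1 of them was called. Of the 14 standard 20S subunits, 8 had a positive log2 fold change after CD40L (median 0.022, range -0.10 to 0.14). Of the 14 measured 19S subunits, 12 did (median 0.11, range -0.085 to 0.26). Of the 5990 bright genes, 3771 did. After LPS it was 6 of 14 (median -0.0092) and 11 of 14 (median 0.041), against 3524 of the 5990 bright genes. The median of the bright genes, 0.051 after CD40L and 0.028 after LPS, lies between those of the 2 particles in both comparisons, and whether the particles differ was not tested.

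In the α ring, whose 7 measured members gate the core, the log2 fold changes after CD40L ran from -0.017 (PSMA2) to 0.12 (PSMA5), and after LPS from -0.058 (PSMA7) to 0.12 (PSMA3). PSMA8, the form of testis, read 8.36 on average, with log2 fold changes of -0.015 and -0.022. The 4 structural β subunits ran from -0.10 (PSMB3) to 0.029 (PSMB4) after CD40L, and from -0.067 (PSMB3) to -0.0078 (PSMB4) after LPS. None of these 11 was called.

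The 5 measured ATPases of the 19S base, which unfold substrates, all had positive values in both comparisons, from 0.053 (PSMC1) to 0.15 (PSMC3) after CD40L and from 0.00068 (PSMC4) to 0.12 (PSMC6) after LPS. None was called, and their adjusted p after CD40L lay between 0.315 and 0.821. Positive values were common among the bright genes too, as given above. The 9 other 19S subunits ran from -0.085 (PSMD4) to 0.26 (PSMD11) after CD40L and from -0.18 (PSMD4) to 0.19 (PSMD6) after LPS. PSMD4, a receptor for ubiquitin chains, was at 11.29, 11.54 and 11.61 in control cells and 11.25, 11.14 and 11.49 after LPS (limma adjusted p = 0.250), and these ranges overlap.

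The chaperones of 19S assembly (PSMD5, PSMD9 and PSMD10) ran from -0.054 (PSMD5) to -0.0088 after CD40L, and from -0.046 (PSMD10) to 0.032 (PSMD9) after LPS. Those of 20S assembly (PSMG1 to PSMG4) ran from -0.019 (PSMG2) to 0.16 (PSMG3) after CD40L, and from -0.065 (PSMG4) to 0.084 (PSMG3) after LPS. PSME4, the activator PA200, had -0.087 and -0.040. The inhibitor PSMF1 had 0.12 and 0.0017. None of these 9 genes was called in either comparison.

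**Figure D2:**
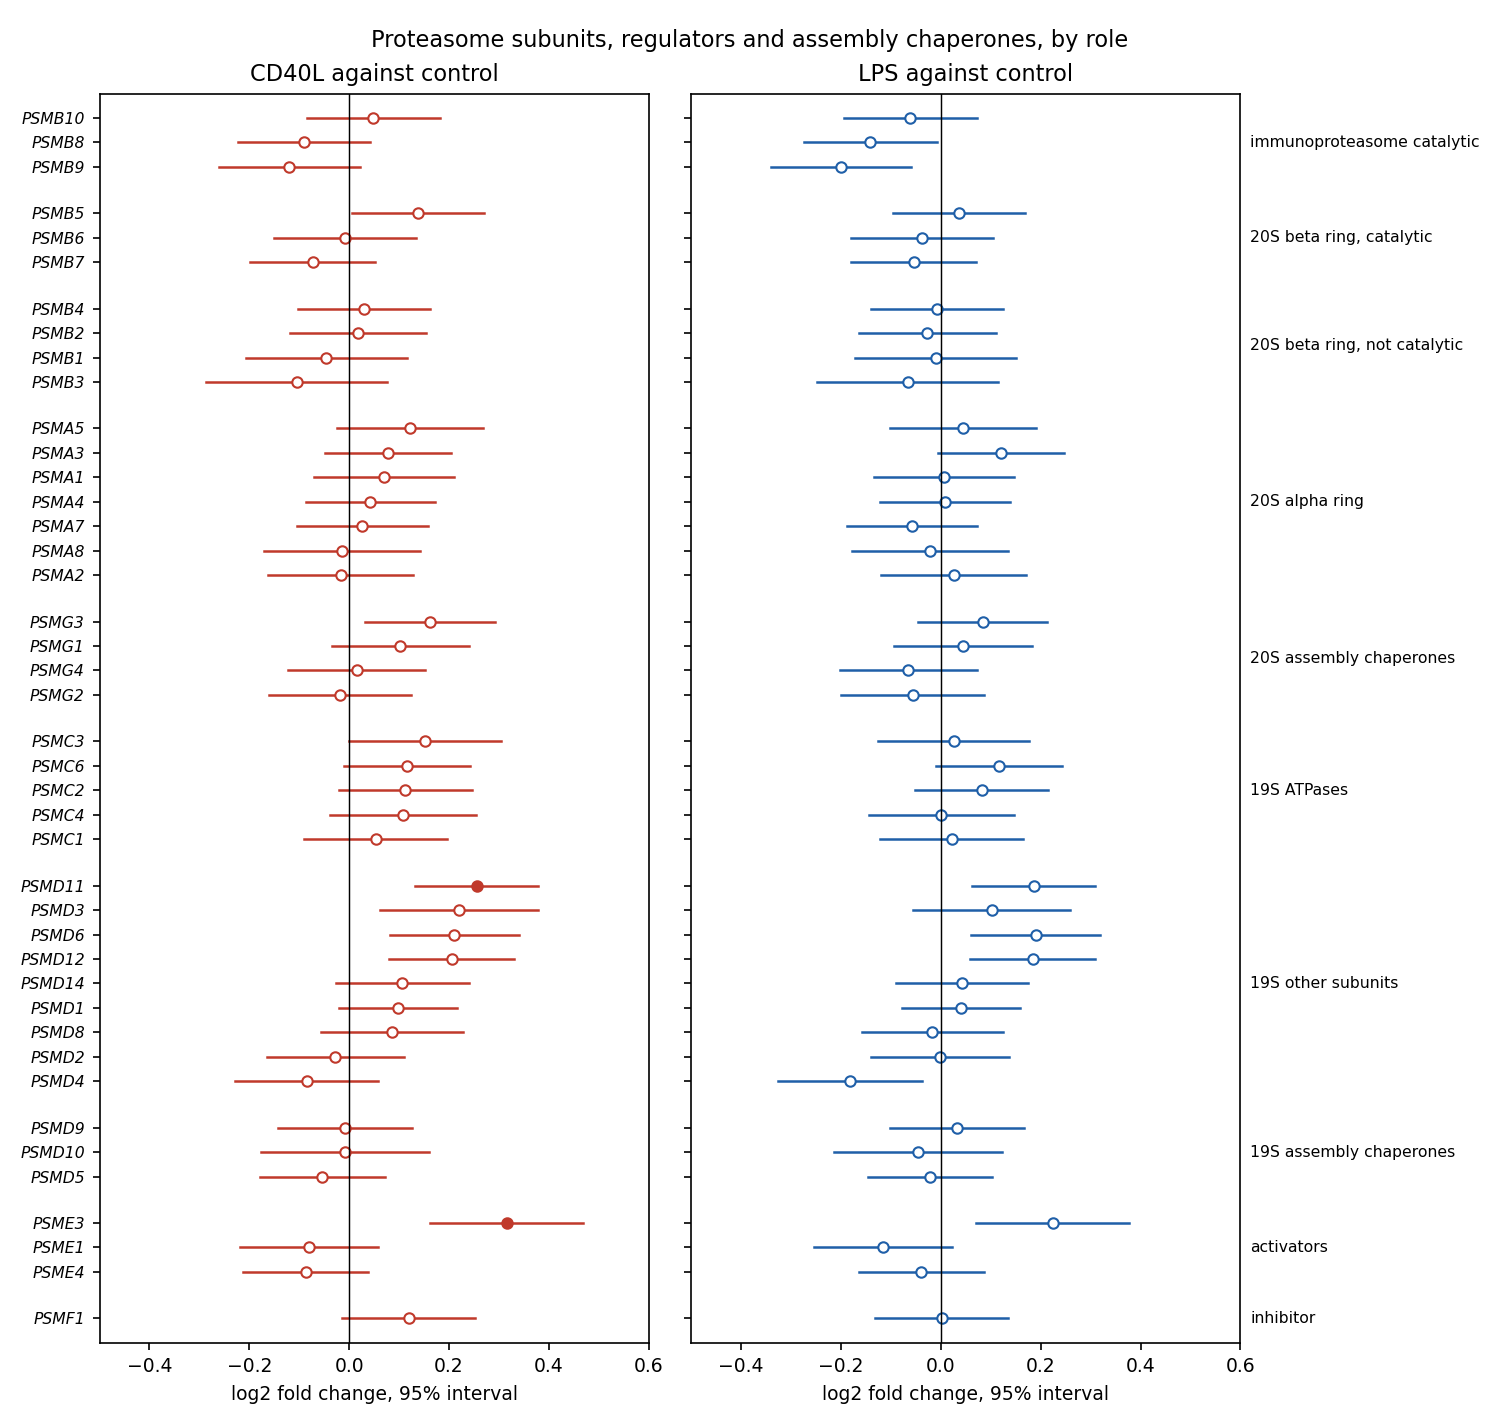
Log2 fold change against control with its 95% interval for the 42 subunits, regulators and chaperones, grouped by role, after CD40L (left) and LPS (right), from 3 arrays a group. Filled points passed a limma adjusted p of 0.05. PSME3 (0.32) and PSMD11 (0.26) after CD40L are the filled points, and the immunoproteasome genes at the top lie between -0.20 and 0.048.

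A gene's probe sets did not always give the same answer. The 50 members had 97 probe sets that name them alone, and 23 members had 1. Of the 97, 8 rose after CD40L and none fell, where 4.4% of all 41091 probe sets that name 1 gene were called higher. Of the bright genes, each by its brightest probe set, 12.8% were. The 8 include 2 probe sets each of PSMD11 and PSME3. After LPS 2 rose, where 1.38% of all probe sets that name 1 gene and 4.39% of the bright genes were called higher. Both were dimmer probe sets of genes not called by the brightest.

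A second probe set of PSMD12 (202353_s_at) read 8.55, 8.66 and 8.53 in control cells, 9.00, 9.12 and 9.06 after CD40L, and 8.98, 8.96 and 9.05 after LPS. It rose by 0.48 after CD40L (limma adjusted p = 9.65e-05) and by 0.41 after LPS (0.00121), with no overlap with the controls. A second probe set of PSMA5 (230300_at) read 6.80, 6.84 and 6.78 in control cells, 7.26, 7.36 and 7.21 after CD40L, and 7.33, 7.21 and 7.16 after LPS. It rose by 0.47 (limma adjusted p = 0.000122) and 0.43 (0.000997), whereas the brightest had 0.12 and 0.045. The other probe sets that rose after CD40L alone were 201404_x_at of PSMB2 (0.29, limma adjusted p = 0.0377) and 213951_s_at of PSMC3IP (0.37, 0.00497), whose brightest probe sets had 0.018 and 0.14. PSMB8, PSMB9, PSMB10 and PSME1 had 1 probe set each.

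**Figure D3:**
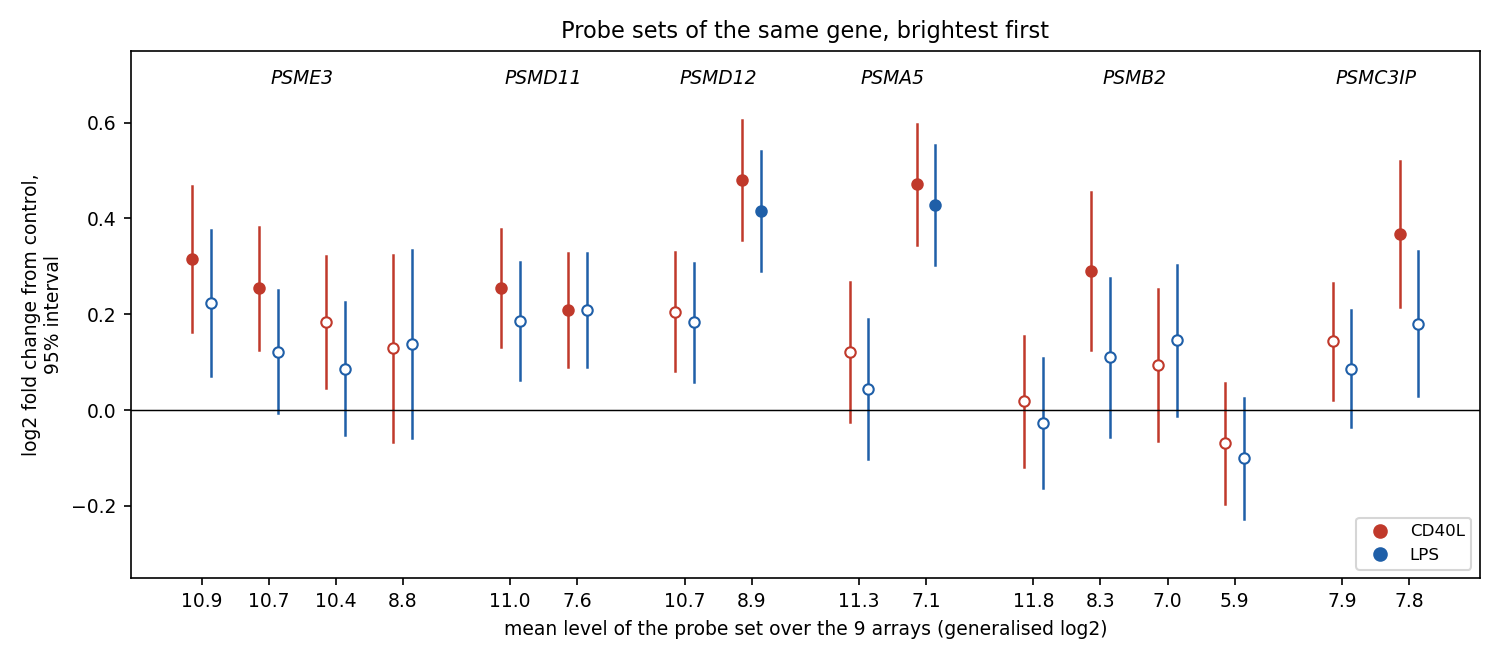
Log2 fold change against control with its 95% interval for each probe set of the 6 genes with a called probe set, ordered within a gene from the brightest and labelled by its mean level over the 9 arrays. Filled points passed a limma adjusted p of 0.05. The dimmer probe sets of PSMD12 and PSMA5 rose after both stimuli, and their brightest ones did not pass the threshold.

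Of the 8 symbols that are no subunits, none was called. PSMB8-AS1, the antisense transcript at the PSMB8 locus, was at 8.56, 8.55 and 8.48 in control cells, 8.41, 8.46 and 8.25 after CD40L, and 8.34, 8.21 and 8.36 after LPS. All stimulated arrays lay below the controls. Its log2 fold change was -0.15 after CD40L (limma adjusted p = 0.248) and -0.22 after LPS (0.108), and with quantile normalisation it was called lower in both.

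Genes for the steps that follow the proteasome were among those that rose. Of 13 measured genes of peptide trimming and transport, 4 rose after CD40L and none fell. Of all genes 5.03% rose and 2.92% fell, and of the bright genes 12.8% and 5.93%. The 4 were TAP1, its partner TAP2 (0.42, limma adjusted p = 0.000508), the loading chaperone TAPBP (0.62, 0.000127) and its relative TAPBPL (0.27, 0.00811). After LPS 3 rose, where 1.62% of all genes and 4.39% of the bright genes did: TAP1, TAPBP (0.40, 0.0124) and TAPBPL (0.24, 0.0353). Between the stimuli 1 was higher with CD40L, TAP1 by 0.43 (limma adjusted p = 0.00255), where 0.491% of all genes were. The other measured genes were not called. Among them the peptidases ERAP2, TPP2 and NRDC had log2 fold changes of -0.22, -0.15 and -0.15 after LPS (limma adjusted p = 0.128, 0.225 and 0.255), and these were the 3 of the list that were lower at an unadjusted p under 0.05. The class I light chain B2M had 0.045 after CD40L and 0.018 after LPS.

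Among 10 measured transcription factors that act on immunoproteasome genes, NFKB2 rose after CD40L by 1.01 (limma adjusted p = 1.09e-07) and RELB by 0.52 (0.000569). IRF8 was at 10.92, 11.11 and 11.11 in control cells and 10.19, 10.05 and 10.13 after CD40L, and fell by 0.92 (5.67e-07). Of all genes 5.03% were called higher and 2.92% lower after CD40L, and of the bright genes 12.8% and 5.93%. After LPS RELB rose by 0.43 (limma adjusted p = 0.00654) and IRF8 fell by 0.43 (0.00347), and 8 were not called. Here 1.62% of all genes were called higher and 1.48% lower, and 4.39% and 3.14% of the bright genes. In the direct comparison NFKB2 was higher with CD40L than with LPS by 0.77 (limma adjusted p = 1.57e-05), and IRF8 was lower, at -0.50 (0.00226). Of all genes 0.491% were called higher with CD40L and 0.152% lower. IRF1, the regulator best known for immunoproteasome genes, had 0.23 after CD40L (limma adjusted p = 0.0878).

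The 5 measured factors of standard proteasome genes, NFE2L1 and NFE2L2 among them, were not called in either comparison. Of 15 measured proteasome partners, UBE3C, a ubiquitin ligase bound to the proteasome, rose after CD40L by 0.31 (limma adjusted p = 0.0344), and none was called after LPS. After CD40L 5.03% of all genes and 12.8% of the bright genes were called higher, and 2.92% and 5.93% lower. After LPS 1.62% and 4.39% were called higher, and 1.48% and 3.14% lower. The core maturation factor POMP had log2 fold changes of 0.055 and 0.037. Of the 5 measured genes for ubiquitin, ubiquitin-like proteins and their E1 and conjugating enzymes, none was called.

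**Figure D4:**
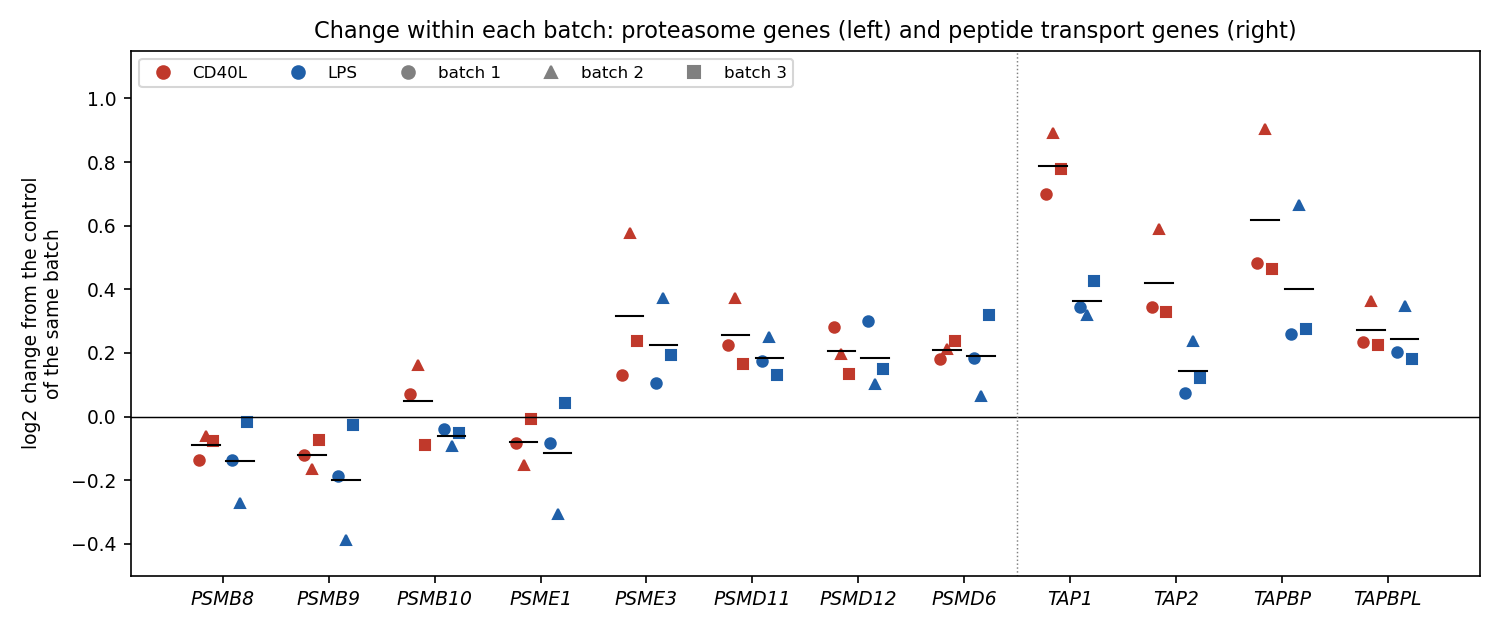
Log2 change from the control array of the same batch in each of the 3 batches, with the mean as a bar, for 8 proteasome genes (left of the dotted line) and 4 peptide transport and loading genes (right), after CD40L and LPS. The PSMB9 points lie below 0 in every batch and those of TAP1 above 0.3.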

How the data were processed

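RNA of 9 BL2 cultures had been hybridised to Affymetrix HG-U133 Plus 2.0 arrays. The authors corrected background and normalised with VSN and summarised probes by median polish, and the deposited values are generalised log2 intensities. Such values compress the changes of dim probe sets, and the number of arrays limits the precision. No values were rescaled here. The 62 control probe sets were left out, and limma 3.58.1 (R 4.3.3) was fitted to the other 54613 over all 9 arrays with treatment and batch as terms, with Benjamini-Hochberg adjustment over all probe sets of a contrast and a threshold of 0.05. Residual degrees of freedom were 4, with 11.6 from the prior. The batch numbers come from the sample titles. Deviations of arrays of 1 number from their group means correlated at over 0.1 in 7 of 9 pairs (mean over the 9 pairs 0.217). The mean between numbers, -0.109, follows from this, since deviations cancel out within a group, and is no separate support. An exact permutation test of 3 against 3 arrays cannot reach 0.05, so none was run. The code was tested on simulated data.

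Genes were named from the platform annotation: 41091 probe sets name 1 gene, 1801 several and 11721 none. The members, gene lists, roles and motifs were chosen with earlier results of these data known. Named in full are PSMB8, PSMB9, PSMB10, PSME1 and the probe set naming PSME2, all members called, PSMB5, PSMB6 and PSMB7, and in each role the highest and lowest log2 fold changes. Members near the threshold, second probe sets, PSMB8-AS1 and TAP1 values were picked after their values were seen. Alternatives were fits without the batch term or with it as a random block, with only the 2 groups compared, on quantile-normalised or median-centred values, without dim probe sets, with an intensity trend, without single arrays or batches, and with other choices of probe set.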

Additional observations from a re-analysis of the deposited data

How the results depend on the processing

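Without the replicate block, and with the replicate block as a random effect, 1 proteasome gene (PSMD11) was called higher after CD40L in place of 2. With only the 2 groups compared in the fit it was 0 (limma, 8 at an unadjusted p under 0.05). It was 5 with the mean of all probe sets of a gene (PSMA5, PSMC3IP, PSMD11, PSMD12 and PSME3) and 6 with the probe set of largest change (PSMB2 added), a choice under which 6.51% of all genes were called higher. These 2 choices gave 2 genes higher after LPS in place of 0, PSMD12 in both, with PSMD11 or PSMA5. With the probe set of largest change 2.26% of all genes were called higher after LPS. Quantile normalisation gave 1 gene lower after CD40L (PSMB8-AS1) and 2 after LPS (PSMB8-AS1 and PSMB9). Leaving out arrays or batches gave 0 to 3 genes higher after CD40L. For settings other than the probe set of largest change, the share of all genes called was not counted. Their counts are therefore no result about the members.

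The median log2 fold change of the immunoproteasome and PA28 genes after CD40L was -0.15 with quantile normalisation and -0.13 to -0.038 without single arrays or batches. That of the other 38 genes was 0.024 with quantile normalisation and 0.11 with the probe set of largest change. PSMB10 less PSMB7 after LPS was -0.067 with the mean of all probe sets and -0.13 with the probe set of largest change.

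The log2 fold change of PSMB10 after CD40L turned to -0.017 with quantile normalisation, and ran from -0.016 to 0.12 without single arrays or batches. The difference between CD40L and LPS, called in no proteasome gene, changed sign in the same way, from -0.029 to 0.11 for PSMB8, -0.0027 to 0.16 for PSMB9, -0.042 to 0.096 for PSME1, -0.017 to 0.060 for PSMD12, -0.042 to 0.079 for PSMD6 and -0.0021 to 0.15 for PSME3. The cause of these shifts was not tested. Probe sets that name several genes, an alternative added after seeing the data, changed no count.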
